A study of Mus musculus with 2 samples.

Results

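The core steps of mitochondrial β-oxidation were followed through 10 of the 20002 genes measured, chosen by symbol from the enzymes and carriers of the pathway. They were the carnitine shuttle genes Cpt1a, Slc25a20 and Cpt2, the acyl-CoA dehydrogenase genes Acadvl, Acadl, Acadm and Acads, the trifunctional protein genes Hadha and Hadhb, and the hydratase gene Echs1. Each of the 10 had at least 1469 scaled reads in each library, so a filter on low values removed none. Bulk RNA-seq of kidney was used to ask whether the enzymes of fatty acid oxidation were lower in mice in which Regnase-2, an RNA-degrading protein encoded by Zc3h12b, had been suppressed. There were 2 libraries, 1 labelled control and 1 labelled Reg-2 CKO, called the control library and the CKO library here.

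The Reg-2 CKO group consisted of C57BL/6J mice given AAV9, an adeno-associated virus vector, that carried shRNA to Regnase-2. It was injected into the tail vein at 11 weeks of age. The CKO of the labels was therefore a knockdown by shRNA and not a deletion, and its preference for proximal tubules rested on the vector. Control mice received an empty AAV9 vector in one passage of the methods and a control shRNA in another. The RNA-seq methods gave 14 weeks as the age of the mice and the left kidney as the tissue, while the AAV9 methods gave 16 weeks and the labels gave whole kidneys with no treatment. All mice had standard chow. Whether a library came from 1 mouse or from a pool, and the sex of the mice, were not given in the sources used here.

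Mitochondrial β-oxidation shortens fatty acids and releases acetyl-CoA, NADH and reduced flavin for the respiratory chain. Long-chain acyl groups enter as carnitine esters, and each round then runs through a dehydrogenation, a hydration, another dehydrogenation and a thiolysis, with different enzymes for long, medium and short chains. Proximal tubule cells reabsorb most of the filtrate and draw much of their ATP from this pathway, with little use of glucose.

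After scaling of the CKO reads by the median gene ratio, the pathway was lower by unequal amounts at its steps. Acadm and Acads, for medium and short chains, fell 2.53-fold and 2.41-fold in the CKO library. Cpt2, Acadl, Acadvl and Echs1 were between 1.90-fold and 1.56-fold lower. Cpt1a, Slc25a20, Hadha and Hadhb were the nearest to the control, between 1.32-fold and 1.15-fold lower. These 4 had log2 ratios above 0 when the library totals were made equal instead, from 0.016 for Cpt1a, almost level, to 0.22 for Hadha. The differences between the members do not depend on the scaling.

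The deposited values were whole numbers that started at 35 for the control and at 51 for the CKO library. Each column was taken as reads plus a constant, 34 and 50, which was subtracted. Depth was then 38851231 control reads and 43588721 CKO reads, and the median gene had 284 and 514 reads. The scaling factor for CKO reads was 0.667. Log2 ratios were taken as CKO over control with a pseudocount of 1, and rose or fell means a ratio of at least 2-fold. With 1 library per group no difference had a replicate check and no test was made. The intervals given are 95% Clopper-Pearson intervals and cover counting error only.

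Zc3h12b, the targeted gene, had 47 control and 59 CKO reads. Its log2 ratio was -0.25 (95% interval -0.83 to 0.33) and turned to 0.16 with equal library totals. With the median gene ratio the interval spans 0 and leaves out a 2-fold fall. A fall smaller than its lower end of -0.83 could not be told from no change at this depth. The knockdown in the label was therefore not seen in the mRNA of whole kidney, and CKO names the library by its label throughout. By immunofluorescence, the paper reports less Regnase-2 in the proximal tubules of CKO mice.

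Another scaling factor shifts all ratios nearly alike, while the values as deposited keep the constants and move genes by unequal amounts. The median log2 ratio of the 17469 genes kept (10 or more scaled reads in either library) was 0.022. It became 0.44 with equal library totals, 0.32 with equal totals after leaving out the mitochondrially encoded genes and Kap, 0.65 with scaling on a list of proximal tubule markers, and 0.57 with the values as deposited. The mitochondrially encoded genes made up 17.0% of the control and 12.4% of the CKO reads. Kap, a gene of the proximal tubule under androgen control, made up 2.54% and 0.239%. The median of the 10 members minus that of all genes lay between -0.70 and -0.66 under each of the 12 settings tried.

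All 10 members were lower in the CKO library, against 48.3% of the 17469 genes kept and 67.5% of the 5944 genes with a mean of at least 1000 scaled reads, while 6 of 10 were lower with equal library totals, against 20.3% of the 17682 genes kept there. At least 1.5-fold lower were 6 of the 10, beside 13.9% of all genes kept and 17.6% of the abundant ones. At least 2-fold lower were 2 of the 10, beside 5.35% and 5.01%, and none was among the 13.4% that rose at least 2-fold. The number at least 1.5-fold lower was 2 with equal library totals, the proximal tubule markers or the values as deposited. It was 3 with equal totals without mitochondrially encoded genes and Kap. The median log2 ratio of the members was -0.68, or -0.26 with equal library totals. Together they had 112742 control and 99805 CKO reads, or 2902 and 2290 CPM, the reads relative to the library total.

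Ratios were lower at higher abundance across the whole transcriptome, and the members were abundant. Among the 1093 genes with a mean of at least 5000 scaled reads the median log2 ratio was -0.46, and 38.5% of them were at least 1.5-fold lower and 13.8% at least 2-fold lower. The 8 members in that range had a median of -0.68. Among the 432 genes with a mean of at least 10000, the median was -0.59, and it was -0.72 for the 3 members there. Other abundant transcripts were thus lower as well, with medians nearer to 0 than those of the members.

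**Figure D1:**
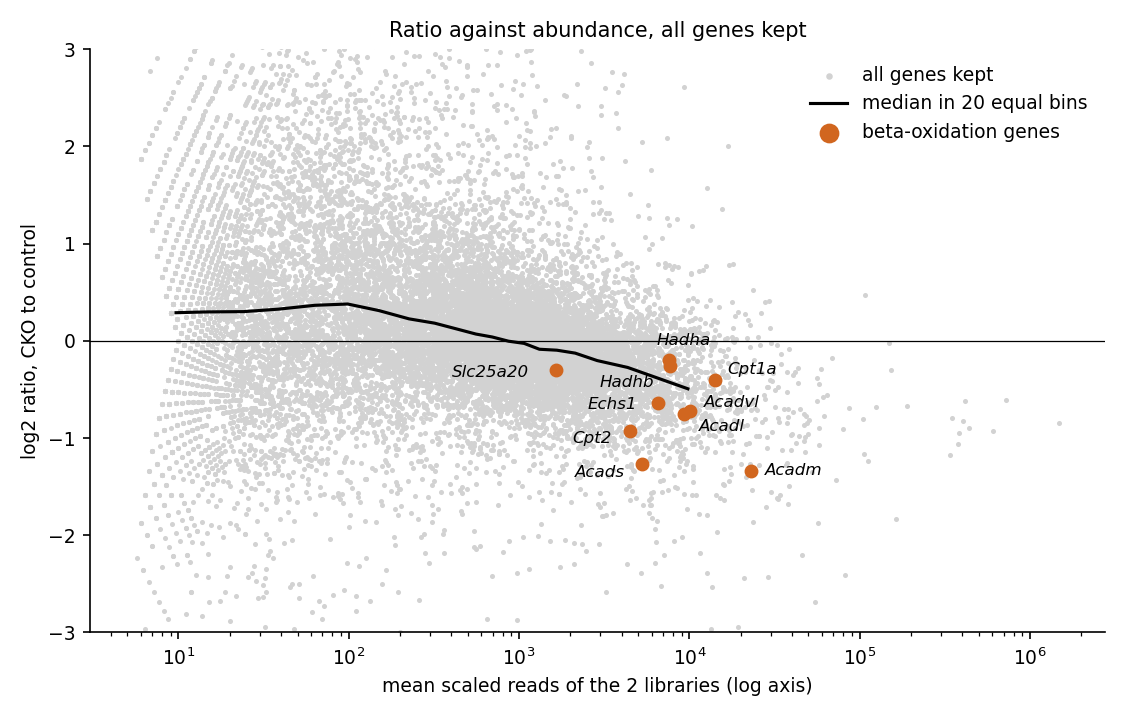
Log2 ratio of the CKO to the control library against the mean scaled reads of both libraries (log axis) for the genes kept, scaled by the median gene ratio; grey points are genes, the black line joins medians in 20 bins of equal size, and 219 genes lie beyond the plotted range. The orange points are the 10 β-oxidation genes: Acadm and Acads are the lowest of them at -1.34 and -1.27, and Hadha and Hadhb at -0.20 and -0.26 lie above the line, on the higher side of 0 only with other scalings such as equal library totals.

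The carnitine shuttle carries long-chain acyl groups into the matrix. Cpt1a (gene ID 12894; GRCm38, which is mm10, chromosome 19 from 3322326 to 3385735, 19 exons) encodes carnitine palmitoyltransferase 1A of the outer membrane, which forms acylcarnitine and is inhibited by malonyl-CoA. Slc25a20 (gene ID 57279; chromosome 9 from 108662136 to 108684642, 9 exons) encodes the carrier that exchanges acylcarnitine for carnitine across the inner membrane. Cpt2 (gene ID 12896; chromosome 4 from 107903982 to 107923589, 5 exons) encodes the inner membrane enzyme that returns the acyl group to CoA.

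Cpt1a had 16114 control and 18277 CKO reads. Slc25a20 had 1813 and 2204 reads. Cpt2 had 5877 and 4645 reads. Cpt2 was thus the shuttle gene with fewer reads in the deeper library. After scaling, Cpt1a stood at 75.6% of the control (log2 -0.40, 95% interval -0.43 to -0.37) and Slc25a20 at 81.1% (-0.30, -0.39 to -0.21), but with equal library totals they were at 0.016 and 0.12, on the other side of 0. Cpt2 stood at 52.7% (-0.92, -0.98 to -0.87) and remained below 0 with equal library totals, at -0.51, and with scaling on the proximal tubule markers, at -0.30.

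The shuttle did not move as a block. Relative to Cpt1a, Cpt2 was lower by a log2 difference of -0.52 (95% interval -0.58 to -0.46), a value free of any scaling. Relative to Slc25a20 it was at -0.62 (-0.73 to -0.51). Slc25a20 and Cpt1a were 0.10 apart (0.0046 to 0.20), so the entry enzyme and the carrier lay close together and the inner membrane transferase stood apart from both. In the control library Cpt1a was at 3733 and Cpt2 at 2478 scaled reads per kilobase of transcript, and in the CKO library at 2822 and 1306. Slc25a20 had the lowest level per kilobase of the 10 genes, 1017 and 824.

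Cpt1a held 92.0% of the reads of the CPT1 isoforms in the control library (95% interval 91.6 to 92.4) and 91.7% in the CKO library (91.3 to 92.1). Cpt1b, the muscle isoform, had 1356 and 1438 reads, and its log2 ratio did not differ from that of Cpt1a beyond counting error (Cpt1a minus Cpt1b 0.097, -0.015 to 0.21). Cpt1c, an isoform of neurons, rose from 41 to 221 reads, from 0.234% to 1.11% of the isoform reads. The liver-type gene Cpt1a therefore remained the main CPT1 transcript in both libraries.

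The acyl-CoA dehydrogenases carry out the opening oxidation of each round and pass electrons to electron transfer flavoprotein. Acadvl (gene ID 11370; chromosome 11 from 70010183 to 70015428, 20 exons) encodes the very long-chain enzyme of the inner membrane, and Acadl (gene ID 11363; chromosome 1 from 66830839 to 66863309, 11 exons) the long-chain enzyme of the matrix. Acadm (gene ID 11364; chromosome 3 from 153922353 to 153944643, 12 exons) encodes the medium-chain enzyme. Acads (gene ID 11409; chromosome 5 from 115110299 to 115119346, 10 exons) encodes the short-chain enzyme. The sequence before the start of Acadm is shown because this gene had the largest fall of the 10. It is read from RefSeq promoters on GRCm38.p6, minus strand, chr3:153944644-153944893, and the capitals mark the nuclear receptor core motif AGGTCA, here on the opposite strand.
Acadm upstream: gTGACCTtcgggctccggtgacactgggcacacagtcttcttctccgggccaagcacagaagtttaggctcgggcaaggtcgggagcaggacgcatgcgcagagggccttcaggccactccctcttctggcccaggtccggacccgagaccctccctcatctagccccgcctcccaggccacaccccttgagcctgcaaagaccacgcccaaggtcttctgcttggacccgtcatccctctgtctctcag

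The motif AGGTCA, searched on both strands, was found in 16.3% of 32851 RefSeq windows of 300 bases, which run from 250 bases before to 50 after a gene start. All 10 members had a window, and 4 held the motif, those of Cpt1a, Acadvl, Acadm and Echs1. Direct repeats of this motif with 1 base between, the arrangement bound by PPARα with its partner RXR, were searched as exact copies only. They were in 13 windows in all and in 0 of those of the members. Exact copies were so rare that this count cannot tell whether the members have or lack such sites. The CCAAT box was in 37.4% of windows and in that of 1 member, Cpt1a. These matches describe the letters in the windows only.

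Acadm was the most abundant of the dehydrogenase genes in both libraries. It had 32780 control and 19443 CKO reads, 844 and 446 CPM. Acads had 7426 and 4613 reads, 191 and 106 CPM. Both had fewer reads in the CKO library although that library was deeper. Acadm stood at 39.5% of the control (log2 -1.34, 95% interval -1.36 to -1.31), rank 483 from the lowest of 17469 genes and rank 129 of the 5944 abundant ones. Acads stood at 41.4% (-1.27, -1.33 to -1.22), rank 546 and rank 152. With equal library totals they were at -0.92 and -0.85, and with scaling on the proximal tubule markers at -0.71 and -0.64, lower in each case but short of 2-fold.

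The long-chain enzymes moved less. Acadvl had 12480 and 11355 reads and stood at 60.7% of the control (log2 -0.72, -0.76 to -0.68). Acadl had 11683 and 10364 reads and stood at 59.1% (-0.76, -0.80 to -0.72). Their log2 ratios differed by 0.037 (-0.017 to 0.090), the smallest difference of the 45 pairs among the 10 genes, so they cannot be separated at this depth. Of the 2168 exonic bases of Acadvl, 976 are shared with Dvl2 on the opposite strand, and the strand setting of the counting was not given in the sources used here. The reads of Acadvl are therefore uncertain there, and Dvl2 itself had 238 and 536 reads.

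The dehydrogenases formed pairs. Acadvl was 0.62 above Acadm (95% interval 0.57 to 0.66) and 0.55 above Acads (0.49 to 0.62) in log2 ratio. Acadl was 0.58 above Acadm (0.53 to 0.63) and 0.51 above Acads (0.45 to 0.58). Acadm and Acads were only -0.067 apart (-0.13 to -0.0075). The genes for medium and short chains thus went down further than those for long chains, and this ordering was the same under every scaling because the scaling cancels in it.

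The mix of dehydrogenase transcripts shifted accordingly. Acadm made up 50.9% of the reads of the 4 genes in the control library (95% interval 50.5 to 51.3) and 42.5% in the CKO library (42.0 to 42.9). Acadvl went from 19.4% to 24.8% and Acadl from 18.2% to 22.6%, while Acads went from 11.5% to 10.1%. Summed, the 4 genes had 64369 and 45775 reads, and their median log2 ratio was -1.01, or -0.60 with equal library totals. Per kilobase of transcript, Acadm was at 16014 scaled reads (control) and 6332 (CKO), the highest level of the 10 genes in each library. Acadl was at 6098 and 3606, Acadvl at 5756 and 3492, and Acads at 3971 and 1645 on the same scale.

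**Figure D2:**
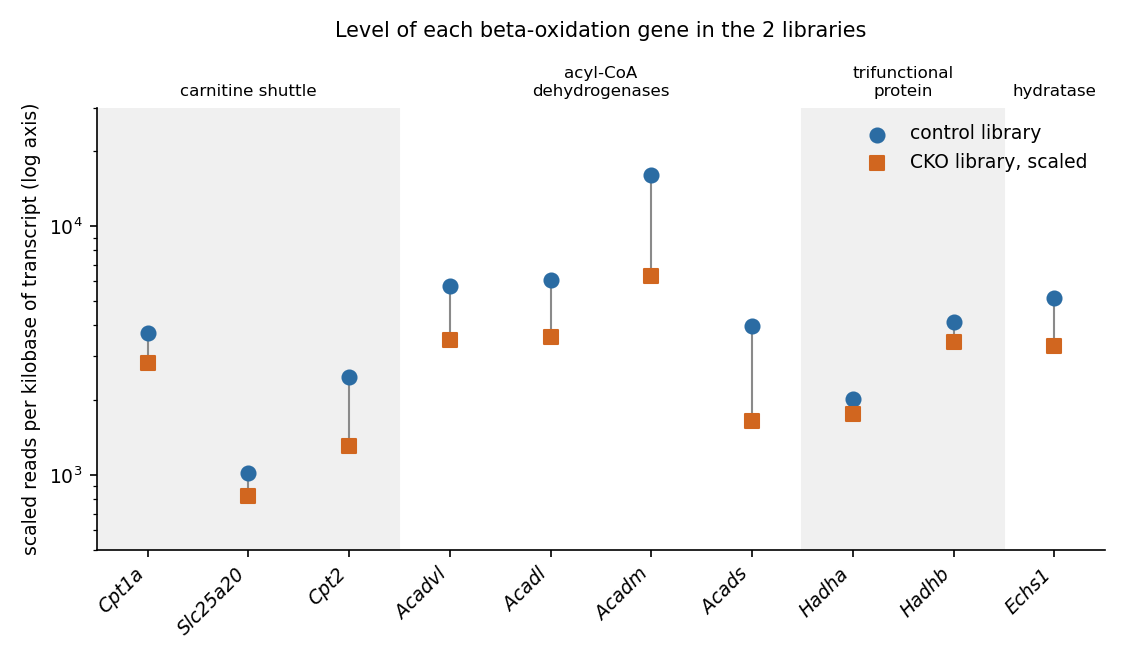
Scaled reads per kilobase of the longest protein-coding transcript (log axis) for each gene in the control library (circles) and the CKO library (squares), in the order of the pathway, 1 library per group. Acadm is the highest in both libraries, at 16014 and 6332, and the gap between circle and square is widest for Acadm and Acads and narrowest for Hadha, whose order of symbols, like that of Hadhb, Cpt1a and Slc25a20, is reversed with equal library totals.

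The mitochondrial trifunctional protein carries the remaining steps for long chains. Hadha (gene ID 97212; chromosome 5 from 30119423 to 30154980, 20 exons) encodes the α subunit with the hydratase and 3-hydroxyacyl-CoA dehydrogenase activities, and Hadhb (gene ID 231086; chromosome 5 from 30155253 to 30184593, 16 exons) encodes the β subunit with the thiolase activity. The genes lie head to head, with 272 bases between their RefSeq starts. The 85 bases that lie outside both GENCODE M21 gene models are shown because the genes share this interval and moved together. It is given on the plus strand, GRCm38, chr5:30155163-30155247, and the capitals mark the GC box GGGCGG, which starts at bases 1 and 66.
Hadha-Hadhb interval: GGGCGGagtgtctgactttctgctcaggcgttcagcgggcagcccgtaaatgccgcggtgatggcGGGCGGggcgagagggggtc
The GC box, searched on both strands, was in 35.7% of the 32851 windows and in those of 8 of the 10 members, Acadvl and Acadm being the exceptions.

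Hadha had 8136 control and 10652 CKO reads, 209 and 244 CPM. Hadhb had 8440 and 10543 reads, 217 and 242 CPM. Both thus took a larger part of the CKO library. After scaling, Hadha stood at 87.3% of the control (log2 -0.20, 95% interval -0.24 to -0.15) and Hadhb at 83.3% (-0.26, -0.31 to -0.22), but both were higher in the CKO library with equal library totals (0.22 and 0.15), also without the mitochondrially encoded genes and Kap (0.10 and 0.036), and with scaling on the proximal tubule markers (0.43 and 0.36). A direction for the trifunctional protein genes therefore depends on the scaling.

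The subunit genes kept nearly the same ratio to each other. Hadha made up 49.1% of their joint reads in the control (95% interval 48.3 to 49.8) and 50.3% in the CKO library (49.6 to 50.9). Hadhb minus Hadha was -0.068 in log2 ratio (-0.13 to -0.0088), rank 4 from the smallest of the 45 pairs. Per kilobase of transcript Hadhb was at 4121 and 3432 scaled reads, and Hadha at 2025 and 1768. The Hadha level rests on a transcript model of 4017 bases, and per kilobase of coding sequence the pair were nearer, at 5923 and 4932 for Hadhb and 3554 and 3102 for Hadha. Of the exonic bases of Hadha, 75 are shared with Garem2 on the opposite strand.

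The widest difference of the 45 pairs was that between Acadm and Hadha, -1.14 in log2 ratio (95% interval -1.19 to -1.09). Acadm had 4.03 reads for each Hadha read in the control library and 1.83 in the CKO library. Acadm was also lower relative to Cpt1a, at -0.94 (-0.98 to -0.90). As shares of the reads of all 10 genes, Acadm went from 29.1% to 19.5%, Cpt1a from 14.3% to 18.3%, Hadha from 7.22% to 10.7% and Hadhb from 7.49% to 10.6%. The transcript pool of the pathway thus shifted from the medium-chain dehydrogenase toward the entry enzyme and the trifunctional protein.

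Echs1 (gene ID 93747; chromosome 7 from 140105710 to 140116421, 8 exons) encodes the short-chain enoyl-CoA hydratase of the matrix, which acts on the products of the medium and short-chain dehydrogenases. It had 7993 control and 7709 CKO reads, 206 and 177 CPM. It stood at 64.3% of the control after scaling (log2 -0.64, 95% interval -0.68 to -0.59), at -0.22 with equal library totals and at -0.0088 with scaling on the proximal tubule markers. Relative to Hadha, which supplies the hydratase for long chains, Echs1 was at -0.44 (-0.50 to -0.38). Its levels per kilobase of transcript were 5134 (control) and 3301 (CKO) scaled reads. The hydratase for shorter chains thus lay between the dehydrogenases and the trifunctional protein. In log2 ratio Acads at -1.27 and Cpt2 at -0.92 were the members on either side of 2-fold, and Echs1 at -0.64 and Cpt1a at -0.40 those on either side of 1.5-fold.

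**Figure D3:**
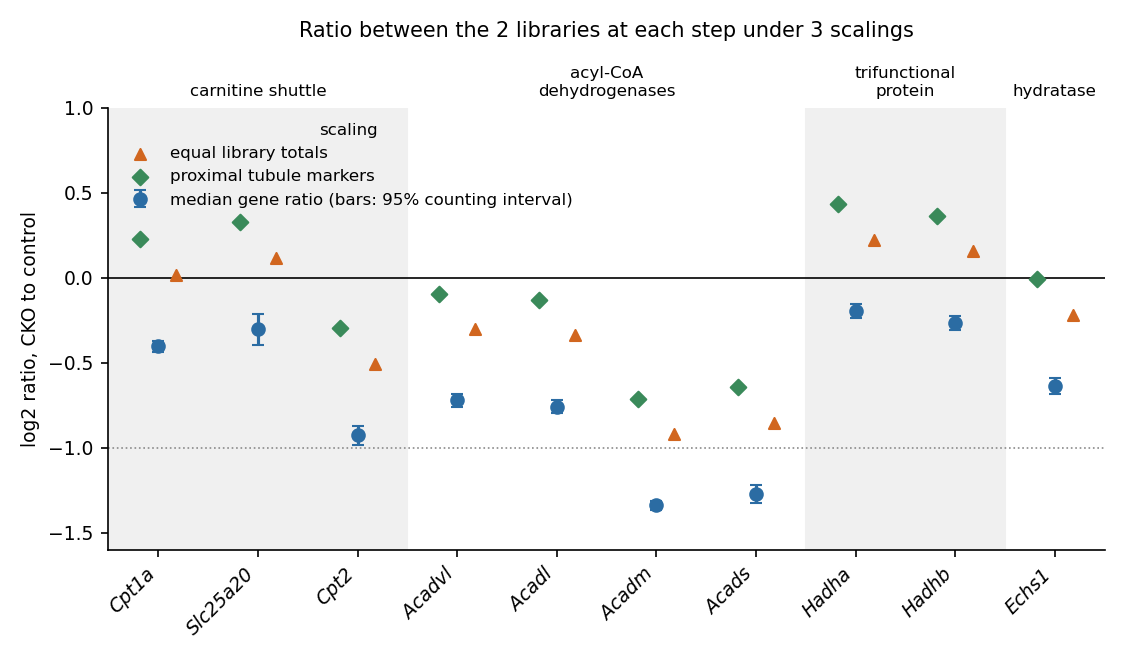
Log2 ratio of the CKO to the control library for each gene in the order of the pathway under 3 scalings: the median gene ratio (circles, bars are 95% counting intervals), equal library totals (triangles) and the proximal tubule marker list (diamonds); the dotted line is 2-fold lower. The pattern over the steps is the same in each, with Acadm lowest and Hadha highest, while Cpt1a, Slc25a20, Hadha and Hadhb lie below 0 with the median gene ratio and above 0 with the others.

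The rest of the pathway was read from a list of 41 genes, of which 39 were analysed here. Of these, 30 were lower and 9 higher in the CKO library, 18 were at least 1.5-fold lower, 5 fell and 4 rose. The median log2 ratio was -0.53, or 0.10 with scaling on the proximal tubule markers. Under the median gene ratio, those that fell were Acat1, the mitochondrial acetoacetyl-CoA thiolase (-1.54), the fatty acid uptake gene Cd36 (-1.47), Slc27a2, a fatty acid transporter and very long-chain acyl-CoA synthetase (-1.23), the dehydrogenase gene Acad10 (-1.17) and the carnitine transporter gene Slc22a5 (-1.06). With equal library totals Slc27a2, Acad10 and Slc22a5 were short of 2-fold at -0.81, -0.75 and -0.64, and with scaling on the proximal tubule markers Acat1 and Cd36 were as well, at -0.91 and -0.84. Those that rose were Fabp1, a fatty acid binding protein (2.01, 95% interval 1.37 to 2.82, from 20 to 125 reads), Bbox1, of carnitine synthesis (1.93, 1.37 to 2.63, from 26 to 153 reads), Cpt1c (1.82) and the acyl-CoA synthetase gene Acsl4 (from 1473 to 4427 reads).

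The genes that work next to the members lay at several levels. Electron transfer flavoprotein and its dehydrogenase, which take the electrons of the acyl-CoA dehydrogenases, were at -0.74 for Etfa, -0.88 for Etfb and -0.77 for Etfdh. The thiolases and the short-chain 3-hydroxyacyl-CoA dehydrogenase close the round for shorter chains, and of these Hadh was at -0.88, beside the dehydrogenases. Acaa2, the thiolase for medium chains, was at -0.16 and turned to 0.26 with equal library totals, beside Hadha and Hadhb. Hadh, Acaa2, Etfa, Etfb and Etfdh were named after their values were seen.

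Upstream of the shuttle, the long-chain acyl-CoA synthetases had a median of 0.27 over 4 genes, and Acsl1 was at -0.22, or 0.20 with equal library totals. Malonyl-CoA inhibits Cpt1a. The 3 genes for its synthesis and breakdown had a median of -0.28, or 0.14 with equal library totals, from its decarboxylase gene Mlycd at -0.98 to the gene of its mitochondrial synthase, Acacb, at 0.16, or -0.56 and 0.58 with equal library totals. For carnitine, Aldh9a1 of its synthesis was at -0.97 and Crat, the acetyltransferase, at -0.77. Acsl1, Mlycd, Acacb, Aldh9a1 and Crat were also named after their values were seen. The 4 other acyl-CoA dehydrogenases of fatty acids had a median of -0.88, and the 4 enzymes of unsaturated fatty acids a median of -0.64.

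The members were set beside lists that share their regulation or their place in the cell. Of 8 genes for PPARα, the nuclear receptor that activates many of the members, and for its relatives and coactivators, 6 were lower and 2 higher, with a median of -0.24, or 0.18 with equal library totals. Ppara, named after its value was seen, was at -0.17, or 0.25 with equal library totals, and the outer values were Rxra at -0.66, which was also the most abundant, and Pparg at 0.36. Among 7 other targets of PPARα that passed the filter, of 9 listed, 4 were lower and 3 higher, from Vnn1 at -0.38 to Cyp4a14 at 3.45 (976 and 16009 reads), with Cyp4a10, the most abundant, at the median of -0.091, or 0.33 with equal library totals.

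All 16 citric acid cycle genes were lower, 11 of them by 1.5-fold or more, but none fell. Their median was -0.65, or -0.23 with equal totals, and Cs was nearest to the control at -0.31, or 0.11 with equal library totals. Of 12 genes for mitochondrial membrane channels and import, 12 were lower, with a median of -0.41, or 0.013 with equal library totals, from Hspd1 at -0.97 to Vdac2 at -0.052, and Hspa9, the most abundant, was at -0.47. The dehydrogenase genes Acadm and Acads were below every gene of both lists.

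Of 11 genes of peroxisomal oxidation, 10 were lower and 4 fell, with a median of -0.69, from Crot at -1.61 to Abcd2 at 2.12 (95% interval 0.87 to 4.33), which had 4 and 31 reads, and Scp2, the most abundant, was at -0.69. The 4 dehydrogenases of branched-chain and lysine breakdown, relatives of the members, had a median of -0.79, from Ivd at -1.27 to Acadsb at -0.45, with Gcdh, the most abundant, at -0.95. The 4 ketone body genes had a median of -1.10, with Bdh1 at -1.62 and Oxct1, the most abundant, at -1.26.

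Whole kidney was sequenced, and in bulk RNA fewer cells of a type and less RNA per cell cannot be told apart. Of 18 proximal tubule markers, 16 were lower, 10 of them by 1.5-fold or more, 4 fell and 2 were higher. Their median log2 ratio was -0.63, close to the -0.68 of the members, or -0.21 with equal library totals, beside -0.26. They ranged from Slc22a6 at -1.62 to Slc5a12 at 0.41, and the most abundant, Slc34a1, was at -1.17, or short of 2-fold at -0.75 with equal library totals. Summed, they had 746567 control and 631835 CKO reads, 19216 and 14495 CPM. Scaled on this list, the median of the members was -0.051, with Acadm at -0.71 and Hadha at 0.43, so the members lay on both sides of the marker median and inside the range of the markers. The part of these markers in the result was not tested.

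Of 16 markers of other nephron segments, 7 were lower and 9 higher, with a median of 0.080. Aqp2 was the highest at 0.79, and Umod, the most abundant, was at 0.47. Their sum was 170141 and 307813 reads, 4379 and 7062 CPM. The 7 endothelial markers had a median of -0.066, or 0.35 with equal library totals, from Kdr at -0.67 to Emcn at 0.14, with Eng most abundant, and summed to 12740 and 17695 reads. The part of these segment and endothelial markers in the result was not tested.

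Markers of infiltrating and stromal cells were higher. Of 11 macrophage markers, 11 were higher and 10 rose 2-fold, with a median of 2.67, from Csf1r at 0.51 to Ms4a7 at 4.33, and Cd74, the most abundant, was at 2.61. They summed to 6518 control and 50526 CKO reads, 168 and 1159 CPM. Of 7 fibroblast markers, 7 were higher, with a median of 1.70, from Pdgfrb at 0.48 to Col1a1 at 2.65, and Col3a1, the most abundant, was at 2.56. They summed to 6974 and 34529 reads. Of 8 T and B cell markers, 4 were analysed here, and these were higher with a median of 1.85, from Cd4 at 1.70 to Cd3g, the most abundant, at 2.22, and a sum of 44 and 267 reads. The part of these infiltrating and stromal cell markers in the result was not tested.

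Markers of other tissues that oxidise fat were also looked for. Of 6 hepatocyte markers, 4 were analysed here, with a median of -0.95, or 0.19 with the values as deposited. They ranged from Ttr, the most abundant, at -2.33 to Serpina1a at 1.09, and summed to 3128 and 1326 reads. The 5 adipocyte and 6 muscle markers listed were not among the 20002 genes measured, so they were not analysed here. Genes with known sex bias in mouse kidney also differed: the male-biased genes Kap and Slco1a1 were at -3.83 and -3.88, and the female-biased gene Slc7a12 was at 2.53. The Y-linked gene Ddx3y had 1920 and 2805 reads, so both libraries held RNA from male mice. These genes were chosen after their values were seen, and the part of each in the result was not tested.

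**Figure D4:**
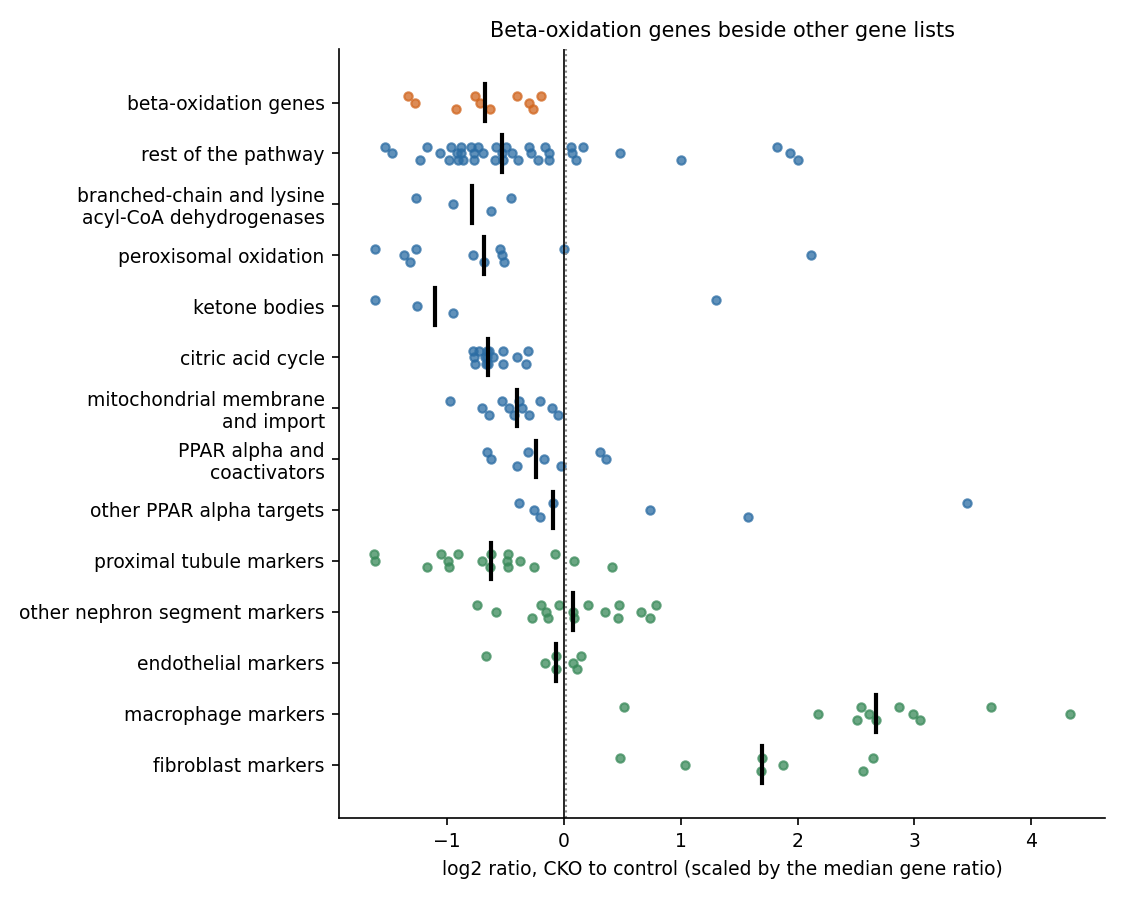
Log2 ratio of the CKO to the control library, scaled by the median gene ratio, for each gene of the lists; points are genes that passed the filter, black bars list medians, and the dotted line the median of all genes kept at 0.022. The β-oxidation genes (orange) have a median of -0.68, beside -0.65 for the citric acid cycle and -0.63 for the proximal tubule markers, and Cpt1a, Slc25a20, Hadha and Hadhb among them turn to above 0 with equal library totals.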

How the data were processed

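RNA of 1 control and 1 Reg-2 CKO kidney library was prepared by the authors with the TruSeq Stranded mRNA kit. Per the labels and methods, reads were aligned to mm10 with STAR 2.7.3a, counted with HTSeq and normalized with DESeq2. Cufflinks 2.2.1 and FastQC were also named. The annotation used for counting was not given in the sources used here. The deposited values were entered as a score, because they are whole numbers named as normalized that carry no standard unit, and were analysed as reads plus a constant. In each column all of the 100 whole numbers from the lowest value up were filled, and reading them as reads plus 34 or 50 is an inference from this. No columns of the authors' own comparisons were used.

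The constant was subtracted, CKO reads were multiplied by the median ratio of control to CKO reads over genes, and log2 ratios were taken with a pseudocount of 1. A gene was kept if either library held 10 or more of its scaled reads. Thresholds were 2-fold and 1.5-fold. Intervals were Clopper-Pearson intervals of the share of CKO reads, and differences between genes used conditional odds ratios. Depth was 38851231 and 43588721 reads. Alternatives were other scalings, the floor kept, pseudocounts of 0.1 and 10, no filter or 50 reads, and another threshold. Lengths came from the longest protein-coding GENCODE M21 transcript, positions and promoters from RefSeq on GRCm38.p6.

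The 10 members and all lists were chosen with earlier results of these data known. Named genes were the 10 members, the highest, lowest and most abundant of each other list, each gene of the rest of the pathway past 2-fold, and the targeted gene. Others were chosen after their values were seen, as stated where they are named, and so were Cpt1b and Dvl2. Some genes that this rule covers are not reported here. The steps were run on simulated data built with the same constants and without variation between animals. That run checks the code only, and not the reading of the values as reads plus a constant or the choice of scaling. The software was Python 3.11.15 with scipy 1.17.1, pandas 2.3.3 and numpy 2.4.6.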

Additional observations from a re-analysis of the deposited data

How the results depend on the processing

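No paired analysis was possible because only 1 library stood for each group. The number of genes at least 2-fold lower was 934. It was 437 with equal library totals, 530 with equal totals without mitochondrially encoded genes and Kap, 308 with scaling on the proximal tubule markers, 131 with the values as deposited, 463 with the floor kept and scaled, 617 with at least 50 scaled reads and 2423 at 1.5-fold. The number at least 2-fold higher was 2334, and it was 3870, 5213, 3574, 1196 and 3801 with equal library totals, the proximal tubule markers, the values as deposited, the floor kept and scaled, and 1.5-fold. The share of higher genes among those past 2-fold was 71.4%, and it was 89.9%, 86.2%, 94.4% and 96.5% with equal totals, equal totals without mitochondrially encoded genes and Kap, the proximal tubule markers and the values as deposited. The median of the 10 members, -0.68, was -0.26, -0.38, -0.051 and -0.091 under these 4 settings, and between -0.70 and -0.65 under the others. Acadm and Acads were the 2 members past 2-fold. That number was 0 with equal totals, the proximal tubule markers or the values as deposited, and 1 without mitochondrially encoded genes and Kap. Among the other named genes that were lower, Cs, Vnn1, Vdac2, Cyp4a10, Eng, Acaa2, Acsl1, Ppara, Ddx3y and Zc3h12b turned to above 0 with equal totals, and Acadsb, Hspa9 and Cpt1b with the proximal tubule markers. Of the other values, 733 stayed within their counting interval and 422 moved beyond it, of which 330 kept their direction and 92 changed sign, none of these past 2-fold. With 1 library per group, depth limits the counting error only.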
